A study of Mus musculus with 4 samples.

Results

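Chromatin accessibility was examined at 10 mouse genes that hold the cell cycle in check: the CDK inhibitor genes Cdkn1a, Cdkn1b, Cdkn2a, Cdkn2b, Cdkn2c and Cdkn2d, the tumor suppressor gene Trp53 with its inhibitors Mdm2 and Mdm4, and the retinoblastoma gene Rb1. The genes were chosen by their known role, and a site belonged to a gene when its centre lay in the gene body or within 20 kb of it. Of 119609 accessible intervals in the study, 61 met this rule, and all 61 passed the filter on low counts. The data are ATAC-seq counts, a measurement in which a transposase inserts adapters into open chromatin so that the reads of an interval report how accessible it is. All libraries came from 1 line of mouse embryo fibroblasts, iMEF2, in which exon 4 of both Ash2l alleles is flanked by loxP sites and a Cre-ER recombinase is present. Treatment for 7 days with 5 nM 4-hydroxytamoxifen (+HOT) activates the recombinase and deletes the exon, and the controls received the solvent ethanol for the same time (-HOT). Ash2l is a core subunit of the KMT2 complexes, which methylate lysine 4 of histone H3. Both groups carry a retroviral shRNA against p19Arf, a product of Cdkn2a, which was used to immortalize the cells, and a blasticidin resistance gene. Each group has 2 libraries, described in the study as technical replicates, so the p-values measure the spread between libraries of 1 line and not between cultures. No drug-treated cells with intact Ash2l were analysed here, and an effect of HOT or Cre and an effect of Ash2l loss cannot be told apart.

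The products of these genes form a pathway that stops cells before they copy their DNA. The INK4 proteins, encoded by Cdkn2a (p16Ink4a), Cdkn2b (p15Ink4b), Cdkn2c (p18Ink4c) and Cdkn2d (p19Ink4d), block the kinases Cdk4 and Cdk6, while the Cip/Kip proteins of Cdkn1a (p21) and Cdkn1b (p27) block cyclin E and cyclin A kinases, and with these kinases silent Rb1 stays unphosphorylated and represses E2F target genes. p53 switches on Cdkn1a after damage, Mdm2 and Mdm4 keep p53 low or inactive, and p19Arf, read from Cdkn2a in another frame and from its own promoter, inhibits Mdm2.

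The libraries held between 21356440 and 37151163 reads in the intervals, and levels are given in CPM, counts scaled to the library total with TMM factors. A site was called lost or gained at an adjusted p under 0.05 in the quasi-likelihood test of edgeR, adjusted by Benjamini-Hochberg over all 119603 tested sites, with an absolute log2 fold change of +HOT over -HOT above 0.40. Of the fibroblast markers, 10 of 10 genes had a promoter site, with a summed level of 379.5 and 362.4 CPM in +HOT and 477.5 and 451.3 CPM in -HOT. None of the 4 blood markers had one, and the summed levels lay between 25.1 and 33.1 CPM for 4 endothelial markers, 11.3 and 18.4 CPM for 5 epithelial markers, of which Krt18 and Cldn4 had no site, 6.96 and 11.1 CPM for 3 muscle markers and 36.5 and 56.7 CPM for 4 neural markers. The muscle sum was higher and the other sums were lower in both +HOT libraries, and their part in the results at these loci was not tested. The study amplified 1 of the -HOT libraries with fewer PCR cycles than the others, and its effect was not tested.

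Accessibility fell at more of these sites than it rose. Of the 61 sites, 14 were called lost and 6 gained, 41 were not called, and 48 had a log2 fold change below 0. Among all tested sites 14.2% were lost and 21.3% gained, and among sites in or within 20 kb of any protein-coding gene 16.3% were lost and 17.9% gained. The median log2 fold change of the 61 sites was -0.23, with -0.29 to -0.16 over the 4 pairings of +HOT and -HOT libraries, against 0.00 for all tested sites and -0.21 for all promoter sites. In 39 of the 61 sites both +HOT libraries lay below both -HOT libraries and in 9 above them, where the corresponding shares of all sites were 34.7% and 36.1%. A loss in a bulk sample can come from fewer cells with an open site or from less opening in each cell, and these cannot be told apart.

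**Figure D1:**
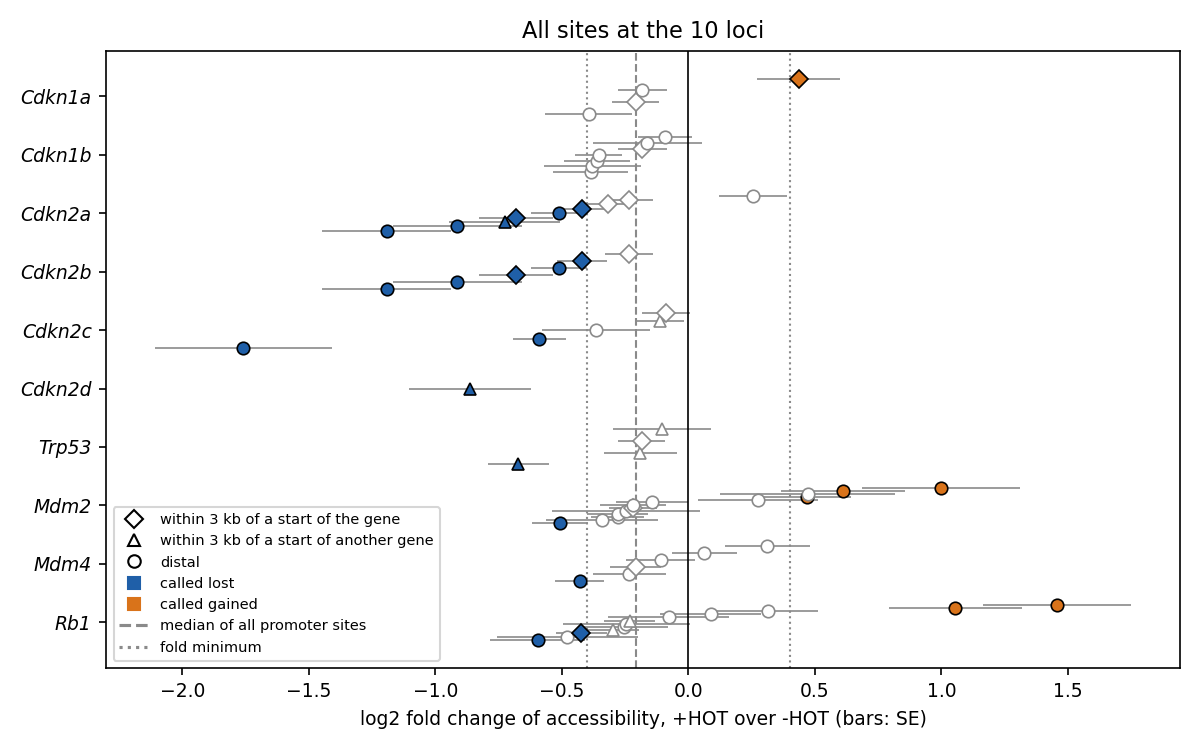
Log2 fold change of accessibility (+HOT over -HOT, horizontal axis, bars are the SE of edgeR's fit) at every site of the 10 loci (vertical axis). Symbols mark the position of the site, blue marks called losses and orange called gains; sites near both Cdkn2a and Cdkn2b are drawn at both genes. At Cdkn2a and Cdkn2b 6 of 9 sites were called lost, while gains lie at Mdm2 with 3 sites, Rb1 with 2 and Cdkn1a with 1.

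Sequences are given here for 7 of the 20 called sites. These are the called sites within 3000 bases of a start of a member gene and the 3 distal sites with the largest changes. They do not stand for the other called sites. The Atp1b2 promoter in the Trp53 window, for example, was lost at -0.67 and has a GC content of 60.7%. All 7 sequences are mm9, 5′ to 3′ on the strand of the gene. They are centred on the interval except for the Rb1 promoter, where the window was shortened to 241 bases to end before the transcript. Capitals mark CG dinucleotides.
Rb1 promoter, chr14:73725630-73725870, minus strand: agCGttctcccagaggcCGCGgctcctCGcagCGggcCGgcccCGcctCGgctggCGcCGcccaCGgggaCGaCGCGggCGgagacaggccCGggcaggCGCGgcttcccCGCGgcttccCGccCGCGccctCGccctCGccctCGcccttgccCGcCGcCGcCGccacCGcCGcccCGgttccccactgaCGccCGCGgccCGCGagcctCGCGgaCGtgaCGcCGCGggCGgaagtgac
Cdkn2a promoter of Arf, chr4:88940962-88941261, minus strand: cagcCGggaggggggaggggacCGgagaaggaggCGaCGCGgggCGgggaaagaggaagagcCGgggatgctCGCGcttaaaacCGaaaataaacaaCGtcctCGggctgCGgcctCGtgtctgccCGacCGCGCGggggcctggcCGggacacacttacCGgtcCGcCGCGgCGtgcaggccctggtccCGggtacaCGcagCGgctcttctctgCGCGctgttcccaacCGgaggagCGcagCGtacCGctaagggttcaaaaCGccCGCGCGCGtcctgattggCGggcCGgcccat
Cdkn2b intron, chr4:88954750-88955049, minus strand: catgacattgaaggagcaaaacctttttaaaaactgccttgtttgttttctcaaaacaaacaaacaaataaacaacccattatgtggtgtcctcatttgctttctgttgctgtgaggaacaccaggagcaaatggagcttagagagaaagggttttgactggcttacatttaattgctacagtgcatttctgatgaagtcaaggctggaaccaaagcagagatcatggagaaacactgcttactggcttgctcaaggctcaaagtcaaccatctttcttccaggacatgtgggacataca
Cdkn2a intron, chr4:88934693-88934992, minus strand: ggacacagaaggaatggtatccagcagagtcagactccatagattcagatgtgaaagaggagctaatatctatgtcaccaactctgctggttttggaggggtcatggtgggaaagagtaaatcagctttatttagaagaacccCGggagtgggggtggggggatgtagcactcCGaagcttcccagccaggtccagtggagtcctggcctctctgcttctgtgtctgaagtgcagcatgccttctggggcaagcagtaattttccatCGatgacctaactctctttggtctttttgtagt
Cdkn2c downstream, chr4:109331609-109331908, minus strand: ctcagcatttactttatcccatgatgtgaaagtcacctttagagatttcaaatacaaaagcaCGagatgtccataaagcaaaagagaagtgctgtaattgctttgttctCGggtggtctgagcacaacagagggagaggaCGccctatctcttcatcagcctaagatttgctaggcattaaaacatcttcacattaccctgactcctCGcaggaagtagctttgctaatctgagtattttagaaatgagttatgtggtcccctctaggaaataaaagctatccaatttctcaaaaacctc
Rb1 intron, chr14:73680883-73681182, minus strand: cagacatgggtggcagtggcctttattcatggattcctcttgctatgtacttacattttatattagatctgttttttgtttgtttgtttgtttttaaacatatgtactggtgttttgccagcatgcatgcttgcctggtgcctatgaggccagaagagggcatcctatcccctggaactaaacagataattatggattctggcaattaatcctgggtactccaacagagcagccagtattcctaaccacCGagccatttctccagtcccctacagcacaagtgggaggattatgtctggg
Cdkn1a downstream, chr17:29237774-29238073, plus strand: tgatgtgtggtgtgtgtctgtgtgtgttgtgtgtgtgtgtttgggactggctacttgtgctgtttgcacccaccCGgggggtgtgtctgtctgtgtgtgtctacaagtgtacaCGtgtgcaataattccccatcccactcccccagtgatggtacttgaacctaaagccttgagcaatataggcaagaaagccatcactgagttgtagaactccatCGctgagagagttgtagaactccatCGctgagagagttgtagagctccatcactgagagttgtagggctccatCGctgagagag
The Rb1 promoter window held 45 CG dinucleotides and the Arf window 40, against a median of 14 in the 300-base windows of all promoter sites. The Cdkn2b intron held 0, the Rb1 intron 1, the Cdkn2a intron 3, the Cdkn2c site 4 and the Cdkn1a site 5, where the median of all distal windows was 3.

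Both strands of these windows were searched for the GC box GGGCGG (bound by SP and KLF factors), the CCAAT box CCAAT, the AP-1 motif TGANTCA, the E2F motif TTTNNCGC, the E-box CACGTG and the p53 half-site; the motifs can overlap one another. The Rb1 promoter window held 5 GC boxes, and the Arf window 1 GC box and 1 CCAAT box. The Cdkn2c site held 1 CCAAT box and the Cdkn1a downstream site 1 E-box, while none of the 6 motifs matched in the Cdkn2b, Cdkn2a and Rb1 intron windows. Over the 10 promoter sites that cover an annotated start of a member gene, 6 windows held a GC box, 4 a CCAAT box, 2 an E2F motif and 2 a p53 half-site, and 1 each held an AP-1 motif and an E-box. Among all promoter windows a GC box was in 39.2%, a CCAAT box in 27.4%, an E2F motif in 5.77%, a p53 half-site in 7.66%, an AP-1 motif in 10.8% and an E-box in 5.70%. Of the 41 distal member sites, 9 held an AP-1 motif, against 27.6% of all distal windows, and 8 a CCAAT box, against 34.2%. A match is a description of the letters and not evidence of binding.

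The promoter sites of the member genes were weakly less accessible in +HOT, with a median near that of all promoter sites under the main scaling. A site covering an annotated transcription start was found for 9 genes, with separate sites for the p16Ink4a and Arf starts of Cdkn2a, and Cdkn2d had none. Of these 10 sites, 2 were called lost and 0 gained, against 23.5% of all promoter sites lost and 7.08% gained; 7 were lower and 0 higher at an unadjusted p under 0.05, and DESeq2 also called 2 lost and 0 gained. All 10 had a log2 fold change below 0, between -0.42 and -0.09, and their median of -0.21 (-0.31 to -0.15 over library pairs) lay beside that of all promoter sites at -0.21. The sets are unlike, since all promoter sites are those within 3000 bases of any start. Their median -HOT level was 15.8 CPM, against 37.7 CPM for the 10 sites. With abundance-trended offsets the median was -0.01 for the 10 sites and -0.07 for all promoter sites. With the GC trend removed it was -0.18 for the 10 sites and -0.13 for all promoter sites. In 9 of the 10 both +HOT libraries lay below both -HOT libraries, where 59.0% of all promoter sites did so and 14.3% lay the other way.

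The 2 called promoters were those of Rb1 and of Arf. The Rb1 promoter site (chr14:73724377-73727063) held 22.6 and 19.1 CPM in +HOT and 29.7 and 26.4 CPM in -HOT. Both +HOT libraries were lower than both -HOT libraries, with a log2 fold change of -0.42 (SE 0.10, adjusted p = 0.000304 by edgeR). The Arf promoter site (chr4:88940050-88942172), which covers 2 of the 3 annotated starts of Cdkn2a, held 27.7 and 21.5 CPM in +HOT and 34.0 and 32.1 CPM in -HOT, again with no overlap (log2 fold change -0.42, SE 0.10, adjusted p = 0.000302). Both lay just past the fold minimum, and neither was called with library totals, with abundance-trended offsets, with the GC trend removed, without the second +HOT library or without the first -HOT library. With the GC trend removed the log2 fold change was -0.26 for Rb1 and -0.20 for Arf, and the sign stayed negative in every alternative run.

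Among the CDK inhibitors, the p16Ink4a start of Cdkn2a (chr4:88927432-88929152) held 32.2 and 27.6 CPM in +HOT and 37.8 and 36.9 CPM in -HOT. The groups did not overlap, and the log2 fold change of -0.32 (SE 0.10, adjusted p = 0.00475) passed the test but not the fold minimum; without the first +HOT library it was -0.44 and the site was called. The promoter of Cdkn2b, whose p15Ink4b protein blocks the same kinases, held 30.4 and 28.2 CPM in +HOT and 35.1 and 33.9 CPM in -HOT (chr4:88955647-88957548; log2 fold change -0.23, SE 0.10, adjusted p = 0.0398) and was below the fold minimum as well. At Cdkn1a, the p21 gene and a classical p53 target, the promoter site (chr17:29230341-29233008) covers 1 of 3 annotated starts and not the first. This site held 51.3 and 50.9 CPM in +HOT and 60.2 and 57.8 CPM in -HOT. The libraries of the groups were apart, but the adjusted p was 0.0618 (log2 fold change -0.21, SE 0.09). The Cdkn1b promoter (chr6:134869503-134871558) held 35.2 and 31.7 CPM in +HOT and 39.0 and 36.9 CPM in -HOT, with a log2 fold change of -0.18 (SE 0.10, adjusted p = 0.116). The Cdkn2c promoter (chr4:109337315-109340203) was the only one of the 10 whose groups overlapped, with 42.4 and 38.4 CPM in +HOT and 44.9 and 41.1 CPM in -HOT (log2 fold change -0.09, SE 0.10, adjusted p = 0.471). With abundance-trended offsets the log2 fold changes of Cdkn1b and Cdkn2c turned to 0.02 and 0.12, and with the GC trend removed that of Cdkn2c was 0.01.

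The promoters of p53 and its inhibitors were not called. The Trp53 promoter site (chr11:69392139-69395479), which lies between Trp53 and the divergent gene Wrap53 and cannot be assigned to 1 of them, held 72.7 and 62.6 CPM in +HOT and 75.7 and 78.2 CPM in -HOT. Both +HOT libraries were lower, with a log2 fold change of -0.18 (SE 0.09, adjusted p = 0.102), and with abundance-trended offsets the value was 0.00. Mdm2, which encodes the ubiquitin ligase of p53, had 40.1 and 35.9 CPM in +HOT and 45.4 and 43.2 CPM in -HOT at a site that covers both annotated starts (chr10:117145949-117148578; log2 fold change -0.22, SE 0.10, adjusted p = 0.0512). Mdm4, whose protein binds p53 and blocks its activity, had 22.0 and 19.6 CPM in +HOT and 23.9 and 24.2 CPM in -HOT (chr1:134921195-134922737; log2 fold change -0.21, SE 0.10, adjusted p = 0.0838). The groups did not overlap at either gene.

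**Figure D2:**
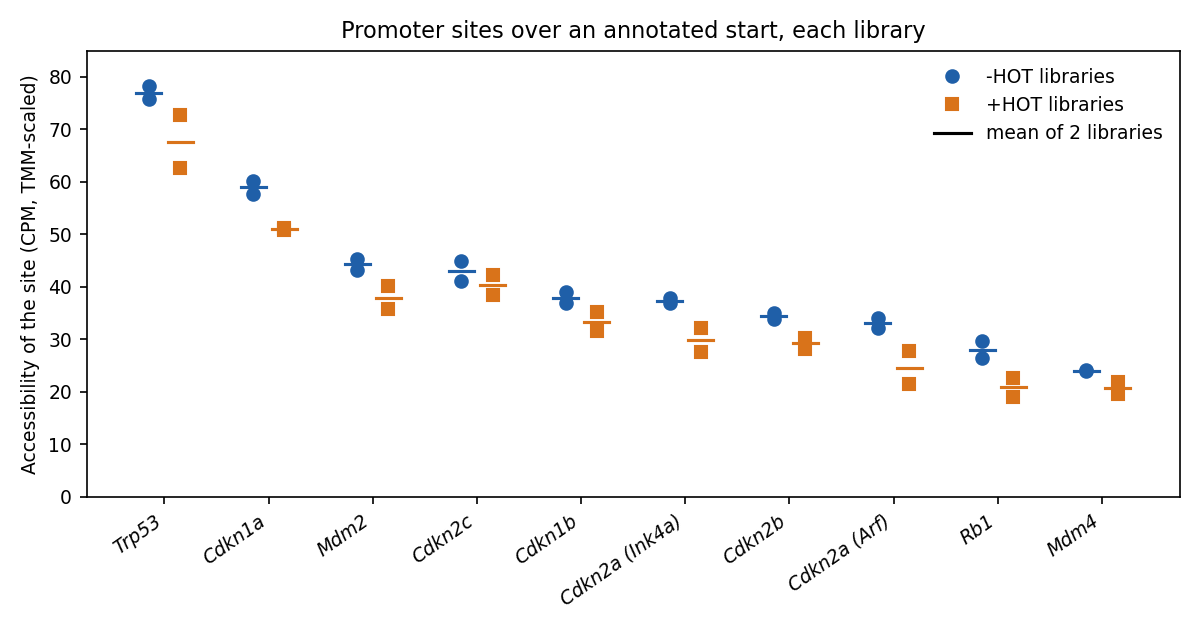
Accessibility in CPM (vertical axis, from 0) of the 10 promoter sites that cover an annotated start, ordered by their -HOT mean. Each point is 1 library, circles are -HOT, squares are +HOT and lines are the means of 2 libraries; the Trp53 site is highest with 75.7 and 78.2 CPM in -HOT, and the groups overlap at Cdkn2c alone.

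Per kilobase of interval, the order of the promoters was nearly the same in both groups. In -HOT the mean level was 23.0 CPM per kb at Trp53, 22.1 at Cdkn1a, 21.7 at p16Ink4a, 18.5 at Cdkn1b, 18.1 at Cdkn2b, 16.8 at Mdm2, 15.6 at Mdm4 and at Arf, 14.9 at Cdkn2c and 10.4 at Rb1. Trp53 did not differ from Cdkn1a by more than the sum of both SDs, and neither did Cdkn1a from p16Ink4a, Cdkn1b from Cdkn2b, Mdm4 from Arf or Arf from Cdkn2c. The p16Ink4a site lay above its next neighbour Cdkn1b by 3.27 CPM per kb, against a summed SD of 1.12. The Rb1 promoter lay below its neighbour Cdkn2c by 4.45 CPM per kb, which is more than the summed SD of 1.79. In +HOT the order differed only in that Cdkn2c, at 14.0 CPM per kb, stood above Mdm4 at 13.5 and Arf at 11.6. The SDs here are between 2 libraries of the same site and do not measure error between sites. A level per kb also depends on the width of the interval, from 1543 bases at Mdm4 to 3341 at Trp53, so the order is descriptive. The Trp53 site is shared with Wrap53.

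At Cdkn1a no interval covers the stretch directly before the first annotated start. A p53 full site is a pair of half-sites side by side, and it was searched in the 10 gene windows with at most 1 mismatch outside the fixed bases and a spacer of at most 1 base. There were 9 such matches, of which 5 overlapped an interval. These lay at the edge of the Cdkn2b intron site, in the strongest site upstream of Mdm2, in the Gm16197 intron site upstream of Cdkn1a and in an intron site of Mdm4. One match lies 42 bases upstream of the first Cdkn1a start and 2449 bases from the nearest interval, so its accessibility is not in these counts; it was singled out after the search because p53 acts on this gene. It is shown with 20 bases on each side and the match in capitals.
Cdkn1a upstream match, chr17:29227873-29227892 without the flanks, plus strand: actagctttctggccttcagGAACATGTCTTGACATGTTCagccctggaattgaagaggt
The matches that overlapped an interval lay outside the 300 bases at its centre. In those centred windows a p53 full site of this kind was in none of the 10 promoter and 41 distal member sites. It was in 0.0828% of all promoter and 0.231% of all distal windows.

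The Cdkn2a and Cdkn2b genes lie side by side on chromosome 4, and their shared locus held 6 of the 14 losses. Of its 9 sites, 6 were called lost and 0 gained, and 8 had a log2 fold change below 0, with a median of -0.51 (-0.75 to -0.29 over library pairs). Of all tested sites 14.2% were lost, and of those in or within 20 kb of a protein-coding gene 16.3%. The 52 sites outside this locus had 8 lost and 6 gained. The summed level of the 9 sites was 126 and 107 CPM in +HOT and 149 and 151 CPM in -HOT. Over the alternatives the number of lost sites at this locus lay between 4 and 7, and the number gained was 0 in each, with 8 sites lower and 0 higher at an unadjusted p under 0.05 in edgeR's test.

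The strongest relative losses at the locus were at weak intronic sites. An intronic site of Cdkn2a between the Arf and p16Ink4a starts (chr4:88934508-88935176, shown above as the Cdkn2a intron) held 1.09 and 1.81 CPM in +HOT and 3.11 and 3.38 CPM in -HOT. Both +HOT libraries were lower, with a log2 fold change of -1.19 (SE 0.25, adjusted p = 5.86e-05). A second site in the same intron (chr4:88932667-88932913) held 1.44 and 1.58 CPM in +HOT and 2.89 and 2.78 CPM in -HOT (log2 fold change -0.91, SE 0.26, adjusted p = 0.00219). A site in an intron of Cdkn2b, 2042 bases downstream of its start (chr4:88954315-88955484), held 6.57 and 4.61 CPM in +HOT and 7.89 and 10.3 CPM in -HOT. The groups did not overlap at any of these sites, and the Cdkn2b intron had a log2 fold change of -0.68 (SE 0.15, adjusted p = 6.23e-05). These 3 calls held in all 12 alternatives. A further loss in a Cdkn2a intron, at -0.73, was larger than that of the Cdkn2b intron and held in 11 of 12. It is given with the next sites.

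Between the 2 genes, an intergenic site 8026 bases downstream of the Cdkn2b start (chr4:88947779-88950052) held 14.2 and 11.7 CPM in +HOT and 17.3 and 19.8 CPM in -HOT, a log2 fold change of -0.51 (SE 0.11, adjusted p = 6.64e-05). The call was absent with abundance-trended offsets (-0.33) and without the second +HOT library (-0.39). A Cdkn2a intron site that lies within 3000 bases of a start of the noncoding gene Gm12606 (chr4:88921881-88922442) held 2.35 and 2.12 CPM in +HOT and 3.75 and 3.68 CPM in -HOT (log2 fold change -0.73, SE 0.22, adjusted p = 0.00453), and was not called by DESeq2 (adjusted p = 0.0540). The only site of the locus above 0, in an intron of Gm12606 beyond Cdkn2a (chr4:88903365-88904406), held 9.79 and 8.17 CPM in +HOT and 7.45 and 7.70 CPM in -HOT, with a log2 fold change of 0.26 (SE 0.13, adjusted p = 0.112).

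**Figure D3:**
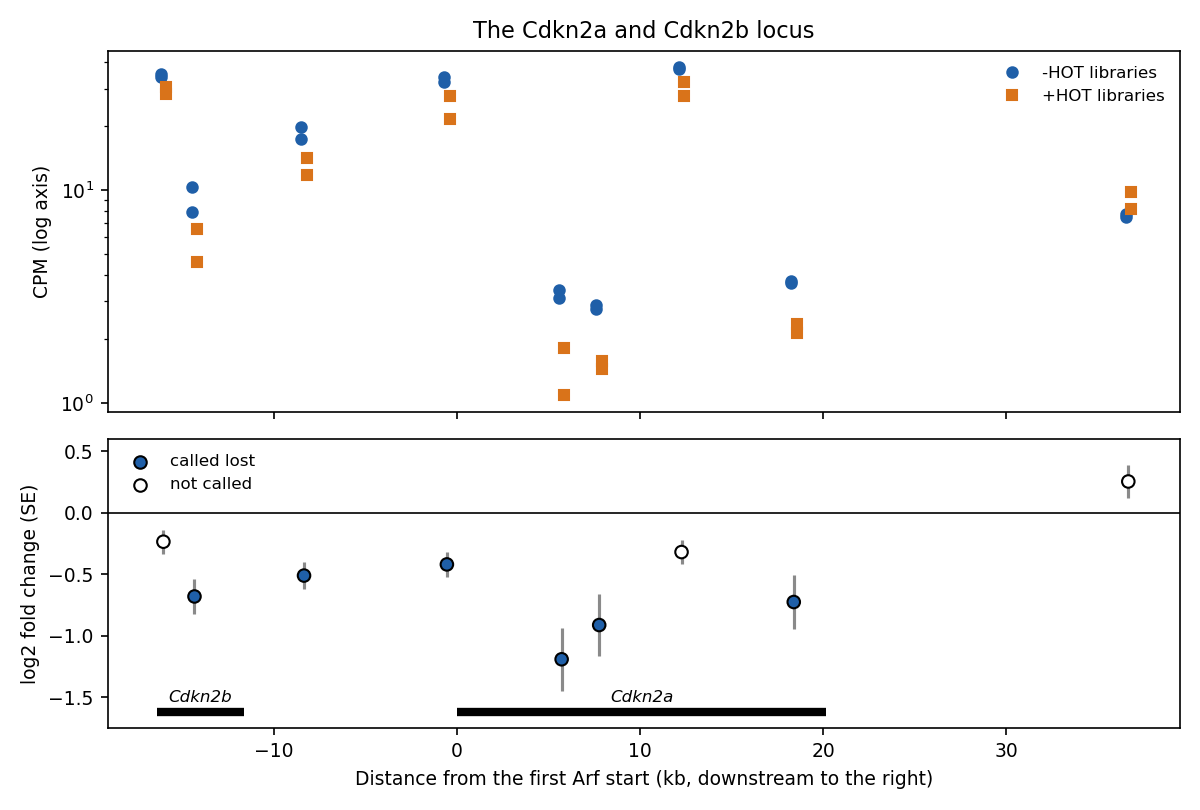
The 9 sites of the Cdkn2a and Cdkn2b locus by distance from the first Arf start in kb, with the direction of transcription to the right. The upper panel gives CPM on a log axis for each library (circles -HOT, squares +HOT) and the lower panel the log2 fold change with its SE, with called losses filled and gene bodies as bars; 8 of 9 sites lie below 0, and the deepest, at -1.19, lies in the intron after the Arf start.

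Of the remaining INK4 genes, Cdkn2c encodes p18Ink4c and Cdkn2d p19Ink4d. A small interval 3′ of Cdkn2c (chr4:109331596-109331920) showed the largest loss of all 61 sites, with 0.46 and 0.72 CPM in +HOT and 1.92 and 2.01 CPM in -HOT. These levels rest on 13 and 16 reads in +HOT and 69 and 60 in -HOT, and the log2 fold change was -1.76 (SE 0.35, adjusted p = 1.62e-05), called in all 12 alternatives. A neighbouring site in an exon of 9630013D21Rik (chr4:109329134-109330982) held 15.2 and 14.0 CPM in +HOT and 21.6 and 22.4 CPM in -HOT, and was lost with a log2 fold change of -0.59 (SE 0.10, adjusted p = 1.69e-06), except with abundance-trended offsets, where it fell just short of the fold minimum at -0.39. The promoter of the neighbour Faf1 (chr4:109348123-109350396), slightly above the Cdkn2c promoter in mean level, had 42.4 and 39.1 CPM in +HOT and 44.9 and 43.3 CPM in -HOT, with a log2 fold change of -0.11 (SE 0.09, adjusted p = 0.347). Cdkn2d had 1 interval in its window, 4109 bases from its start and in an intron of the neighbouring gene Kri1 (chr9:21091119-21091969). It held 1.47 and 2.12 CPM in +HOT and 3.31 and 3.15 CPM in -HOT and was called lost (log2 fold change -0.86, SE 0.24, adjusted p = 0.00209), but not without the first +HOT library (-0.60, adjusted p = 0.0867). These counts give no level for the Cdkn2d promoter itself.

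The Cip/Kip genes showed little called change. At Cdkn1b all 7 sites had a log2 fold change below 0, between -0.39 and -0.09, and 0 were called by edgeR or by DESeq2; 3 of the 7 had an adjusted p under 0.05 in edgeR's test, and the same number an unadjusted p under 0.05. The strongest of them, 3′ of the gene (chr6:134876766-134879893), held 42.1 and 43.3 CPM in +HOT and 57.5 and 51.6 CPM in -HOT, higher in both -HOT libraries. Its log2 fold change of -0.35 (SE 0.09, adjusted p = 0.00124) stayed under the fold minimum, and it was called with TMM factors from distal sites (-0.43) and without the second -HOT library (-0.44). At Cdkn1a 1 of 4 sites was called, a gain at the 3′ end of the gene (chr17:29237554-29238293, shown above as Cdkn1a downstream) with 6.99 and 5.37 CPM in +HOT and 4.17 and 5.09 CPM in -HOT (log2 fold change 0.44, SE 0.16, adjusted p = 0.0237). The lowest +HOT value was close to the highest -HOT value, and the call held in 7 of 12 alternatives, not in DESeq2 nor without the first library of either group. The strongest site apart from the promoter, in an intron of the noncoding gene Gm16197 upstream of Cdkn1a (chr17:29214878-29216534), held 29.1 and 26.3 CPM in +HOT and 31.6 and 31.4 CPM in -HOT (log2 fold change -0.18, SE 0.10, adjusted p = 0.119), and turned to 0.02 with abundance-trended offsets. Other uncalled sites lay just under the fold minimum, at -0.39, -0.38 and -0.36 for Cdkn1b and at -0.39 upstream of Cdkn1a. All of these were called lost with TMM factors from distal sites, and none with library totals or DESeq2.

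Around p53 and its inhibitors, called changes were away from the promoters of Trp53, Mdm2 and Mdm4. In the Trp53 window the promoter of Atp1b2, a subunit of the sodium pump (chr11:69418459-69420001), held 9.23 and 7.86 CPM in +HOT and 13.2 and 14.2 CPM in -HOT. The groups were apart, and the log2 fold change of -0.67 (SE 0.12, adjusted p = 2.29e-06) was called in all 12 alternatives. The promoter of Efnb3, on the other side of Trp53, had a log2 fold change of -0.10 (SE 0.19). Upstream of Mdm4 an intergenic site (chr1:134929527-134931189) held 33.6 and 29.3 CPM in +HOT and 42.1 and 42.8 CPM in -HOT, higher in both -HOT libraries. It was lost with a log2 fold change of -0.43 (SE 0.10, adjusted p = 0.000123), and the call was absent with library totals, with abundance-trended offsets and without the second +HOT library. None of the other 5 Mdm4 sites was called.

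The Mdm2 window held 13 sites, of which 3 were gained and 1 lost, and it runs into the gene Cpm (carboxypeptidase M, not the unit), which ends near the 3′ end of Mdm2. A site in a UTR of Cpm (chr10:117123785-117124059) held 1.76 and 2.35 CPM in +HOT and 0.67 and 1.41 CPM in -HOT, a log2 fold change of 1.00 (SE 0.31, adjusted p = 0.00600). Both +HOT libraries were higher, but the 2 -HOT libraries differed by more than the higher of them and the lower +HOT library, and without the first -HOT library the value was 0.53 with no call. The call was also absent with DESeq2 (adjusted p = 0.0932), with abundance-trended offsets and without the second +HOT library. The other gains lay in an intron of Cpm (0.47, SE 0.17) and in an intron of Mdm2 (0.61, SE 0.24), and each of these held in 5 of 12 alternatives. The loss, in an intron of Cpm (chr10:117106026-117107315), was from 18.8 and 16.9 CPM in -HOT to 13.3 and 11.7 CPM in +HOT (log2 fold change -0.51, SE 0.11, adjusted p = 7.48e-05), and was called in 11 of 12 alternatives, with -0.33 under abundance-trended offsets. The strongest site upstream of Mdm2 (chr10:117154417-117155724) held 19.6 and 15.3 CPM in +HOT and 22.1 and 20.5 CPM in -HOT (log2 fold change -0.28, SE 0.10, adjusted p = 0.0235), and was called lost without the first +HOT library at -0.48.

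Rb1, the longest of the 10 genes, held 2 called gains and 2 called losses among 12 sites, and 8 of the 12 had a log2 fold change below 0. An intron site (chr14:73680803-73681261, shown above as the Rb1 intron) held 2.56 and 2.53 CPM in +HOT and 0.97 and 0.87 CPM in -HOT. Both +HOT libraries were higher, and the log2 fold change of 1.46 (SE 0.29, adjusted p = 1.86e-05) was the largest gain of the 61 sites and the only 1 of 6 gains called in all 12 alternatives. Upstream of the gene (chr14:73739739-73740375) 2.14 and 4.02 CPM in +HOT stood against 1.22 and 1.71 CPM in -HOT, a log2 fold change of 1.06 (SE 0.26, adjusted p = 0.000537). The +HOT libraries differed there by more than the lower of them differed from -HOT, and without the second +HOT library the value was 0.56 with no call. A further intron site (chr14:73643714-73644659) was lost, from 5.25 and 4.55 CPM in -HOT to 3.37 and 3.12 CPM in +HOT (log2 fold change -0.60, SE 0.19, adjusted p = 0.00672), and it was not called by DESeq2 (adjusted p = 0.0713) or without the first -HOT library (-0.49, adjusted p = 0.122). The gene for the lysophosphatidic acid receptor Lpar6 lies inside Rb1, and its promoter site (chr14:73637473-73639481) had the highest mean level of the locus. It held 26.5 and 21.5 CPM in +HOT and 29.9 and 26.7 CPM in -HOT (log2 fold change -0.23, SE 0.10, adjusted p = 0.0501).

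By position, 12 sites lay within 3000 bases of a start of a member gene, 8 near a start of a neighbour and 41 were distal. Of the distal sites 8 were lost and 5 gained, where 12.3% of all distal sites were lost and 24.1% gained, and their median log2 fold change was -0.25 against 0.07 for all distal sites. Of the neighbour promoters 3 were lost and 0 gained, beside 23.5% lost and 7.08% gained among all promoter sites, with 5 lower and 0 higher at an unadjusted p under 0.05 in edgeR's test and 2 lost and 0 gained with DESeq2. Over the 61 sites the rank correlation of the log2 fold change with GC content was -0.14, with the mean level -0.09 and with interval length -0.13, against -0.18, -0.32 and -0.32 over all tested sites. Sites share their 4 libraries and their normalization, so these correlations only describe the sets. At the edge of the 20 kb window, the outermost sites inside were near Trp53 (-0.10, not called), Cdkn2b (-0.91, lost) and Mdm2 (-0.51, lost), and the first outside were near Mdm4 (1.52, gained), Cdkn1b (-0.23, not called) and Mdm2 (0.25, not called).

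**Figure D4:**
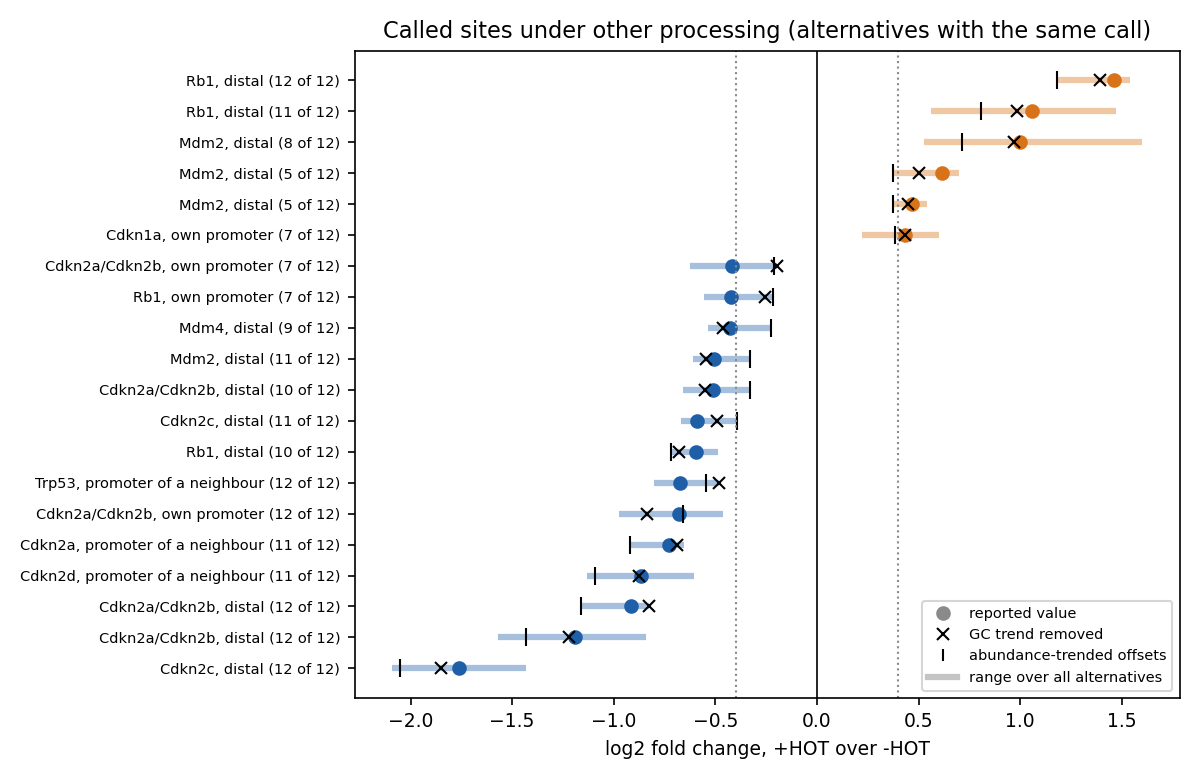
Log2 fold change (horizontal axis) of the 20 called sites as reported (points, blue lost and orange gained), with the GC trend removed (crosses), with abundance-trended offsets (ticks), and the range over all 12 alternatives (bars). The label of each site gives in how many alternatives its call held; 5 losses and 1 gain held in all 12, and no called site crossed 0.

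The promoters of other genes of the pathway, listed by known role, were also mostly lower. Of 68 listed genes 65 had a promoter site, taken as the strongest within 3000 bases of a start; 14 were lost and 0 gained, with 58 below 0 and a median log2 fold change of -0.24. At an unadjusted p under 0.05 in edgeR's test 38 were lower and 2 higher, and DESeq2 called 15 lost and 0 gained. Without the first +HOT library 22 were lost, and with abundance-trended offsets 6. Over all 16697 genes with such a site losses made up 23.0% and gains 5.02%, and the median was -0.22. Among pocket proteins, E2F and DREAM partners, the relatives, targets and partners of Rb1 and its family, 6 of 15 were lost, beside the 23.0% of all genes. Rbl1, the p107 relative of Rb1, fell from 25.9 and 25.6 CPM in -HOT to 14.7 and 13.1 CPM in +HOT (log2 fold change -0.89, SE 0.10, adjusted p = 3.97e-12). Mybl2 fell by 0.63 and the DREAM subunit gene Lin9 by 0.56 on the log2 scale. The genes of this list whose promoters fell include activators of the cell cycle such as Mybl2 as well as repressors such as Rbl1.

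Among the G1/S kinases and cyclins 3 of 12 were lost, beside 23.0% of all genes with a promoter site. Cdk6, a kinase that the INK4 proteins block, fell from 42.3 CPM in each -HOT library to 24.1 and 23.4 CPM in +HOT (log2 fold change -0.83, SE 0.10, adjusted p = 2.78e-12). Ccnd1, the cyclin D1 gene, and Ccne2 fell by 0.46 and 0.45 on the log2 scale. Among the p53 family and p53 regulators 3 of 19 were lost, a share below that 23.0%, with the checkpoint kinase gene Chek1 falling from 35.7 and 33.8 CPM in -HOT to 18.9 and 18.0 CPM in +HOT (log2 fold change -0.92, SE 0.10, adjusted p = 1.18e-13). Trp53bp1 and Usp7 fell by 0.45 and 0.44 on the log2 scale. Of the regulators of the INK4 and ARF locus 2 of 17 were lost, also a share below 23.0%: Tbx2, a repressor of Arf, with a log2 fold change of -0.87 (SE 0.13) and the Polycomb gene Cbx2 with -0.62 (SE 0.11). Neither of the other CDK inhibitors, Cdkn1c and Cdkn3, was called. The promoters of Chek1, Rbl1, Tbx2 and Cdk6 had larger losses than any of the 10 promoters of the member genes, of which the lowest value was -0.42. They were picked by size of change from 65 promoters, a larger set, and the lowest value over all genes with a promoter site was -1.72. The differences between genes were not tested.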

How the data were processed

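Intervals were taken from the deposited table of raw read counts per interval for 4 libraries. Per the paper's methods and the processing notes, the authors trimmed reads, aligned them to mm9 with BWA, removed duplicates and blacklisted reads with SAMtools and Picard, called peaks with MACS2 and counted reads. Tool versions and the way in which peaks were merged across libraries: not given in the sources used here. Counting within peaks leaves closed chromatin unmeasured, and removing duplicates limits the strongest sites. The same deposited table holds 4 columns of scaled signal and the authors' DESeq2 fold changes of -HOT over +HOT with p-values, which were not used. The deposited footprint score per motif was made by the authors from merged replicates with RGT-HINT and is not reported here.

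Positions were set to 1-based mm9, and genes and starts are from GENCODE vM1 (protein-coding and lincRNA transcripts for starts). Counts were filtered with filterByExpr, scaled with TMM and fitted over the whole table with edgeR 4.0.16 in R 4.3.3 (quasi-likelihood test, Benjamini-Hochberg adjustment over 119603 sites); SE is the log2 fold change divided by the root of F. With 2 against 2 libraries the smallest two-sided exact permutation p is 0.333, so single values were tested only in this fit. The script was tested on simulated data. The counts of replicates differed by more than sampling noise (chi-square per degree of freedom 2.38 in +HOT and 2.22 in -HOT), so none were merged. Windows of 300 bases were read from the mm9 genome. The members, the pathway lists and the marker lists were chosen with earlier results of these data known. By the rule for names, every promoter site of a member is given. For each locus that had them, so are the called distal site with the largest change and the strongest non-promoter site. Up to 3 called genes of each list are also given. The other called sites, those at the edge of the window and the Efnb3, Gm12606, Faf1 and Lpar6 sites were added after their values were seen. The same holds for the uncalled Cdkn1b and Cdkn1a sites just under the fold minimum. Alternatives were other scalings (library totals, DESeq2 size factors, TMM on distal sites, abundance-trended offsets, GC trend removed), DESeq2 1.42.0, no filter, each library left out, a replicate block, other fold minimums and other windows.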

Additional observations from a re-analysis of the deposited data

How the results depend on the processing

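Both groups hold 2 technical libraries of 1 line, the intervals cover open chromatin only, and the promoter calls lie near the fold minimum, so scaling decides several of them. The median log2 fold change of the 61 sites, -0.23 as reported, was -0.16 with library totals, -0.31 with TMM on distal sites and -0.15 with abundance-trended offsets. These scalings moved the median of all sites to 0.07, -0.08 and 0.00, and the balance of calls over all sites from 25433 gained and 17008 lost to 28921 and 12662, 21863 and 22704, and 20264 and 18203; with DESeq2 it was 15087 and 11960. With a fold minimum of 0.58 the lost sites numbered 9 (14 as reported), the lost promoter sites within 3000 bases of a member's start 1 (3 as reported), the lost distal sites 5 (8 as reported) and the lost pathway promoters 6 (14 as reported). With no fold minimum 5 promoter sites and 33 pathway promoters were lost. A window of 50 kb held 32 lost and 11 gained sites, of which 20 and 9 were distal. A window of 5 kb held 11 lost and 4 gained sites, of which 6 and 3 were distal. The wider window takes in more sites than the 61 and the narrower one fewer. These counts alone therefore do not show that a larger or smaller share of sites was called. The lost promoter sites numbered 1 with library totals, after removal of the GC trend, or with abundance-trended offsets. This was the Cdkn2b intron site, which covers no annotated start. Of the sites that cover a start, 0 were lost in each of these settings. Gained sites numbered 3 with TMM on distal sites and 2 with abundance-trended offsets or DESeq2, and the same numbers held for gained distal sites. TMM on distal sites gave 13 lost distal sites. The lost pathway promoters numbered 8 with library totals, 22 with TMM on distal sites, 7 after removal of the GC trend, and 6 with abundance-trended offsets. Leaving out each library in turn gave 11 to 18 lost and 2 to 4 gained sites, 1 to 4 lost promoter sites, 7 to 12 lost and 2 to 3 gained distal sites and 11 to 22 lost pathway promoters. With abundance-trended offsets the log2 fold change of the promoters of Cdkn2c, Cdkn1b and Trp53 turned to 0.116, 0.0248 and 0.00311, and that of the Cdkn1a site in Gm16197 to 0.0246; with the GC trend removed that of the Cdkn2c promoter was 0.00787. The cause was not tested in any of these cases. The rule for names picked 23 sites, which had 276 values under an alternative. Of these values, 242 kept their direction and call, 25 lost the call, 4 gained one and 5 changed sign. Sites added after their values were seen are not in this count. Among those, the gains in introns of Cpm and Mdm2 each held in 5 of 12 alternatives and the Atp1b2 loss in 12 of 12.

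The labels do not say whether the replicate numbers pair the libraries. Deviations of same-numbered libraries from their group means correlated at 0.04 over all tested sites, which does not exclude pairing at a part of them. With the number as a replicate block, 14 sites were lost and 6 gained, 3 promoter sites, 8 distal sites and 14 pathway promoters were lost and 5 distal sites gained, the counts as reported. Several adjusted p of edgeR's test fell under 0.05 with the block. They were 0.00334 for the Cdkn1a promoter (0.0618 without it), 0.00463 for Mdm2 (0.0512) and 0.00467 for Trp53 (0.102). For Cdkn1b the value was 0.0291 (0.116) and for Mdm4 0.0379 (0.0838), while Cdkn2c stayed above 0.05 at 0.291. The log2 fold changes of these promoters stayed within the fold minimum.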
